A study of Mus musculus with 5 samples.

Results

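The genes described here are 40 mouse interferon-stimulated and MHC class I genes, taken by symbol from the 29267 genes of the deposited tables. All 40 were found through the GENCODE M21 annotation of GRCm38, the assembly also called mm10. The study asked which genes are regulated by mitochondrial flashes (mitoflashes), brief bursts of activity in single mitochondria, and sequenced RNA from reprogramming mouse embryonic fibroblasts of the ICR strain. Reprogramming turns body cells toward a pluripotent state. There were 5 groups with 1 library each, 2 at day 4 and 3 at day 8. At day 4, cells made to express CypD (cyclophilin D, the product of Ppif and a regulator of the mitochondrial permeability transition pore) stood beside cells expressing Flag as their control. At day 8, cells given mastoparan (a wasp venom peptide that acts on G proteins) and cells given paraquat (a herbicide whose redox cycling makes superoxide) stood beside an untreated control. The labels give CypD expression as the genotype of all 3 day-8 groups, whereas the design text names it for day 4 alone. The labels give no doses, reprogramming factors or number of cultures. With 1 library a group there is no replicate, so no difference below has a test between conditions, an SD or a p-value.

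Library totals lay between 2426015 expected counts (paraquat) and 3426702 (CypD). Ppif had 2629 counts in the CypD library, 112 in Flag, and 79 to 95 in the day-8 libraries, so the day-8 genotype label is not borne out by a raised Ppif count. All 12 fibroblast markers were detected in every library, and their summed level was 6651 to 6924 CPM. None of the 8 lymphocyte markers reached a mean of 1 CPM. Here and below, CPM stands for counts in each 1000000 reads of a library scaled by TMM, a method that aligns libraries on the bulk of their genes. In bulk RNA, fewer cells of a type and less RNA per cell cannot be told apart.

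Interferons are secreted proteins that bind receptors of the type I, II or III class and signal through JAK kinases to STAT and IRF transcription factors. Type I and III interferons act through a complex that includes Stat2 and Irf9 and binds the interferon-stimulated response element (ISRE), and interferon gamma acts through the gamma-activated site (GAS). The genes switched on include RNA sensors, antiviral effectors and the machinery that loads peptides onto MHC class I molecules. A class I molecule is a heavy chain, such as H2-K1 or H2-D1, paired with B2m, and its peptides are cut by the proteasome, carried into the endoplasmic reticulum by Tap1 and Tap2 and loaded with the help of Tapbp. Fibroblasts keep many of these genes at a low level without infection.

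The sequences below are the promoter windows of the 6 most abundant members (by mean TPM, the share of transcripts, adjusted for gene length, in each 1000000) that hold an ISRE core. They are shown because they carry the element through which interferon is known to switch this gene group on, and because their genes did not share 1 pattern across the libraries. Each window holds 250 bases before and 50 bases after the RefSeq start site in GRCm38.p6, 300 bases in all, read 5′ to 3′ on the gene's strand. Capitals mark the core, GAAA followed by any 2 bases and another GAAA, searched on both strands, so that in Ddx58 it appears as its reverse complement. Ifitm2 lay on the minus strand at chr7:140955912-140956211, Ifitm3 on the minus strand at chr7:141010695-141010994 and B2m on the plus strand at chr2:122147437-122147736. Bst2 lay on the minus strand at chr8:71537423-71537722, Ddx58 on the minus strand at chr4:40239776-40240075 and Oas1a on the minus strand at chr5:120907476-120907775.
Ifitm2: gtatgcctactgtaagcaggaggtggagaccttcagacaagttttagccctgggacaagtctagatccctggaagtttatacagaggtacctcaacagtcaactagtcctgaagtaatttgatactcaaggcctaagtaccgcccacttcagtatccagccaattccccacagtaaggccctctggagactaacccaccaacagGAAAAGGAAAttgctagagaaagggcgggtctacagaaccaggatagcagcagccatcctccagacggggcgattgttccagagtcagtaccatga
Ifitm3: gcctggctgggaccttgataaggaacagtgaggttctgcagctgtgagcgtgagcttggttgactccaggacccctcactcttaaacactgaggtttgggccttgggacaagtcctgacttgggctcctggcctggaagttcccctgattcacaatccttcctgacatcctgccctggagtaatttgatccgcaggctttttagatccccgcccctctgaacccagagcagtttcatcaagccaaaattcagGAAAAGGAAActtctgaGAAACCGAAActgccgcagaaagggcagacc
B2m: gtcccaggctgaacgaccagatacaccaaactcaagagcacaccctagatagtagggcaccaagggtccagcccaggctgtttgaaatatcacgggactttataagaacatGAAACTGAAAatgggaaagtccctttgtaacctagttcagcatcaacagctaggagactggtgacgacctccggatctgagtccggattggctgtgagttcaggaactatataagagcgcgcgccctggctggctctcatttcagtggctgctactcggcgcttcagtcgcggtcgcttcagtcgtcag
Bst2: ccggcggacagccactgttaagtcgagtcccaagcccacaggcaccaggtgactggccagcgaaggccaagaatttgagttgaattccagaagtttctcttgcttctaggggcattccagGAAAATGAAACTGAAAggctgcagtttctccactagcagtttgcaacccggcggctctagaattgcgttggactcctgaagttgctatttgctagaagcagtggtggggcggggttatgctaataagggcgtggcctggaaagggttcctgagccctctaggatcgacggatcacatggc
Ddx58: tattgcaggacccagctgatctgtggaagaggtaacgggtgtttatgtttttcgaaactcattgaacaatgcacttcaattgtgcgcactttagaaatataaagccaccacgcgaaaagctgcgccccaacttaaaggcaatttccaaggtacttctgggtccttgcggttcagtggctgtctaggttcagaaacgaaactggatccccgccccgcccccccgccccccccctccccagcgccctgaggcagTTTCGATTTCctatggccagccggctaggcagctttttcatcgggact
Oas1a: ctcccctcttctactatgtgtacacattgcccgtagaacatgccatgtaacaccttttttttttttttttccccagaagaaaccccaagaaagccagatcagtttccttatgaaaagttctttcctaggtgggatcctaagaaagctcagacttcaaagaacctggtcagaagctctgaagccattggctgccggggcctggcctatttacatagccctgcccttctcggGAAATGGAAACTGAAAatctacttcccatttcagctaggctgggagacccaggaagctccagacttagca

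A promoter window was found for 33 of the 40 members, with 40 windows in all. The ISRE core was present in 16 of the 33 (48.5%), whereas it was present in 3.99% of all 27025 genes with a window. By window, 40% of those of the members and 3.44% of all 32851 held it. The core lay in 9 of 14 antiviral effectors. Of the GTPase, PARP and DTX genes 4 had a window, and 3 of these held the core: Gbp2, Gbp3 and Gbp7. Parp9 and Parp14 had no window. Among the class I genes 1 of 5 had it, B2m, between 139 and 130 bases before its start. In 4 members (Bst2, Gbp3, Isg15 and Oas1a) neighbouring ISRE cores shared bases. The GAS core TTCNNNGAA, which reads alike on both strands, lay in 10 of the 33 members (30.3%) and in 9.55% of all genes. Both cores were found in 5 members, and in Bst2 and Ifitm3 they shared bases. A match describes the letters of these windows only.

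**Figure D1:**
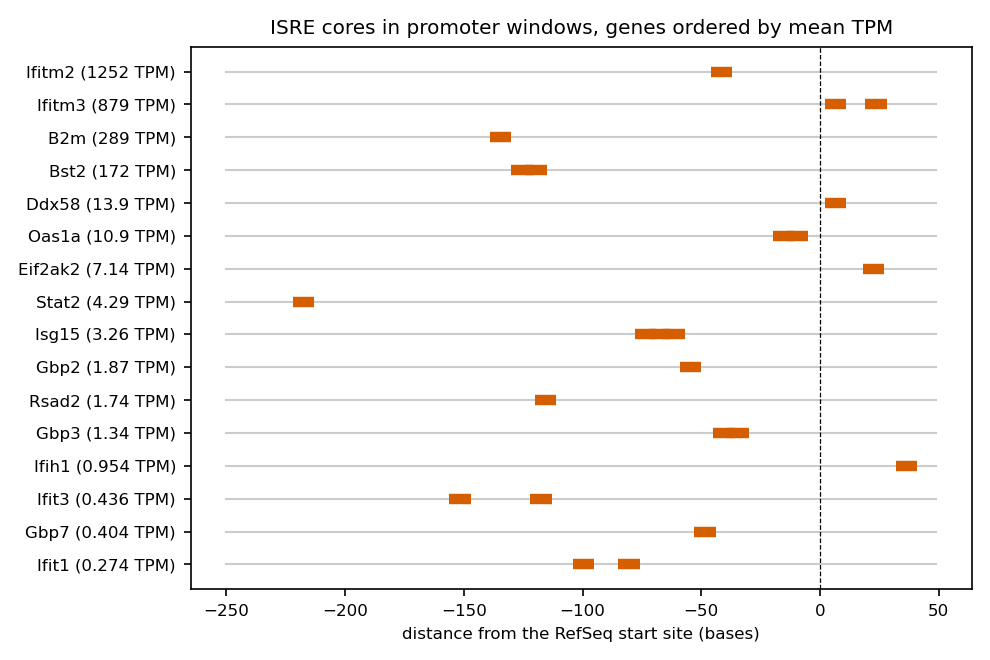
Positions of ISRE cores (orange) in the promoter windows of the 16 members that hold one. The horizontal axis is the distance from the RefSeq start site in bases, the dashed line is the start site, and genes are ordered from the lowest mean TPM over the 5 libraries (bottom) to the highest, Ifitm2 at 1252 TPM (top). Cores lie on both sides of the start site, and the abundant Ifitm2 and Ifitm3 share this element with genes near 0 such as Ifit1.

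The members covered a wide range of levels. Ifitm2, Ifitm3, B2m, Ifitm1, Bst2, H2-K1 and H2-D1 were the 7 members above a mean of 100 TPM, whereas 18 members were below 5 TPM. Together the members took 0.188% (Flag) to 0.242% (paraquat) of a library's counts. Of the 40, 36 reached a mean of 1 CPM over the 5 libraries and entered the comparisons. Usp18, Ifit1, Ifit3 and Rtp4 did not, and none of these had more than 6 counts in any library. The 16 members with a mean under 20 counts never had more than 20.

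Some members with well known antiviral roles had few counts in all 5 libraries, and those given next were chosen after their values were seen. Isg15, a ubiquitin-like modifier, had 4 counts in Flag, 6 in CypD, 3 in the control, 4 with mastoparan and 7 with paraquat. Ifit1, which binds foreign RNA ends, had 3, 2, 0, 2 and 0 counts in the same order. Rsad2 (viperin), which makes a chain-terminating nucleotide, had 20, 15, 15, 9 and 6 counts, above the limit of detection. Ifit2, a relative of Ifit1, had 7, 18, 12, 17 and 4 counts. For a library at 0, a floor of 3 counts allows a level of up to 0.869 CPM in CypD and 1.30 CPM in paraquat, the deepest and shallowest libraries. Outside the members, all 10 interferon genes listed as ligands, among them Ifnb1 and Ifng, had 0 counts in every library, as did Cxcl10. Mx1 had 3, 0, 2, 0 and 0 counts. Nlrc5, the transactivator of class I genes, had at most 1 count. The receptors were present: Ifnar1 lay between 47.5 CPM (CypD) and 60.0 CPM (Flag), and Ifnar2 between 33.9 CPM (Flag) and 54.4 CPM (mastoparan).

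Among the members with a mean of at least 20 counts, the 4 highest ratios in the 5 comparisons lay between the days. All 3 day-8 libraries were above both day-4 libraries for 17 of the 36 measured members (47.2%), and this held for 28.5% of all 13584 genes measured. All 3 were below both for 4 members (11.1%), Trim25, Adar, Samhd1 and B2m, and for 28.1% of all genes. In the remaining 15 members the days overlapped. Of the 17, 9 kept this order under each of 6 ways of scaling: Stat2, Ifih1, Ifitm1, Oas1a, Bst2, H2-K1, Tap2, Tapbp and Lgals3bp. The share of all genes that kept their order under all 6 was not computed. Rescaling does not address counting error, and Ifih1 had 8 counts in CypD and 6 with paraquat. On the deposited TPM the order held for 9 members, and for 20.3% of all genes. By construction the untreated day-8 control lay above both day-4 libraries for each of the 17. The part of a treatment in this order was not tested. Day and the genotype as labelled cannot be told apart, although Ppif was not raised at day 8.

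**Figure D2:**
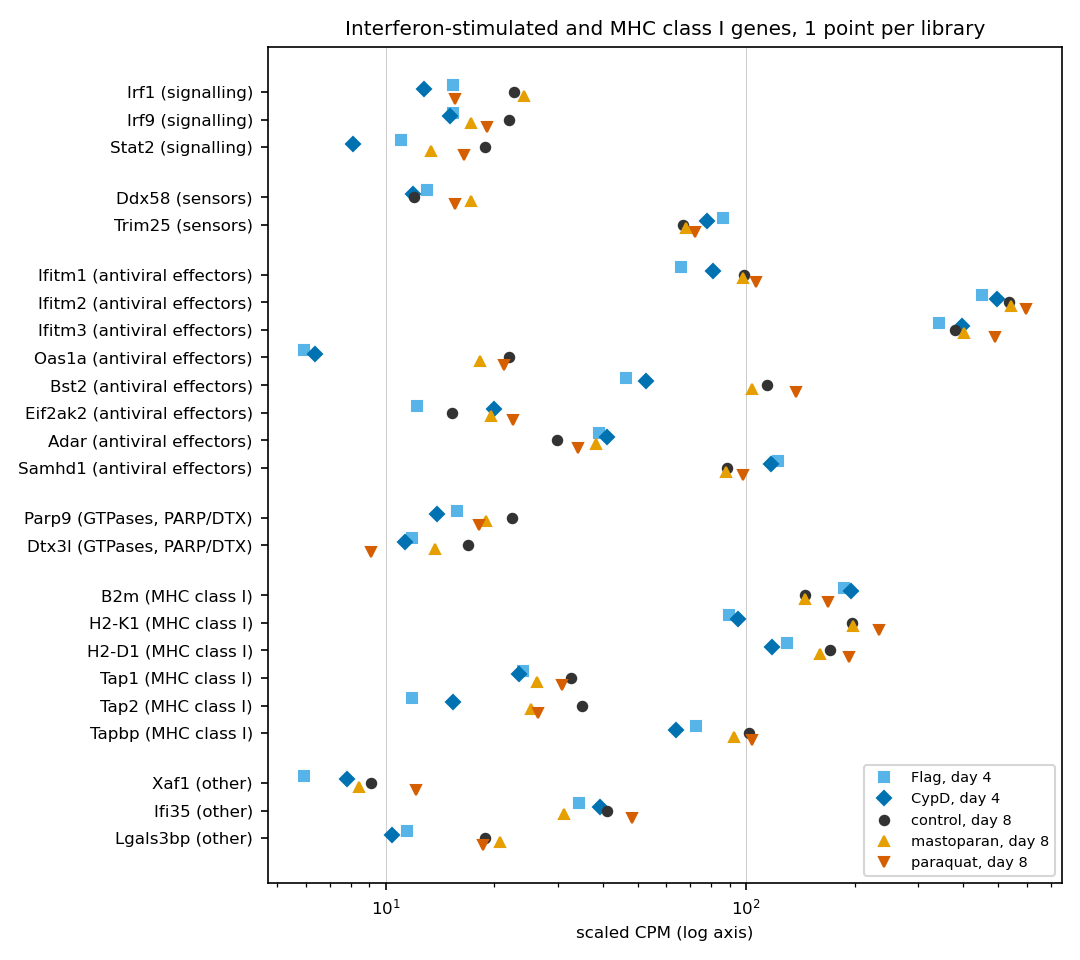
Scaled CPM (log axis) of the 24 members with a mean of at least 20 counts, grouped by role, with 1 point per library (squares and diamonds for day 4, circles and triangles for day 8; the vertical offset only separates points). The day-8 points of Oas1a, Bst2, H2-K1 and Tap2 lie to the right of both day-4 points, and those of B2m and Samhd1 to the left.

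In what follows, 5 values in a row are given in the order Flag, CypD, day-8 control, mastoparan and paraquat. Among the signalling genes, Stat2, a transcription factor that acts under type I interferon, was at 11.0, 8.11, 18.8, 13.3 and 16.5 CPM. Irf9, a DNA-binding partner of Stat2, was at 15.4, 15.1, 22.1, 17.2 and 19.1 CPM. Irf1, a transcription factor induced by interferon gamma, was at 15.4, 12.7, 22.7, 24.2 and 15.6 CPM. Stat2 was separated by day under each scaling and Irf9 except on TPM. Paraquat was barely above Flag for Irf1, whose days overlapped under 3 of the 6 scalings, library totals, TPM and totals without the 20 most abundant genes. Irf7, which drives the late phase of interferon induction, rested on few reads: 3, 11, 18, 11 and 7 counts.

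The sensors showed no common direction. Ddx58, the RNA sensor RIG-I, was at 13.0, 11.9, 12.0, 17.2 and 15.6 CPM, so that the days overlapped. Trim25, the ubiquitin ligase that activates RIG-I, was at 86.4, 77.9, 66.8, 68.1 and 71.9 CPM, with every day-8 library below both day-4 libraries. Ifih1, the long double-stranded RNA sensor MDA5, was above at day 8 with 3 and 8 counts at day 4 and 6 to 12 at day 8. Mavs, the adaptor on the mitochondrial outer membrane through which RIG-I and MDA5 signal, was at 78.5, 71.5, 88.5, 90.9 and 74.9 CPM, overlapping between the days.

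Bst2 and Oas1a stood apart among the antiviral effectors. Bst2 (tetherin, ENSMUSG00000046718, chr8:71534255-71537456), which holds budding virus at the cell surface, was at 46.6, 52.7, 114, 104 and 138 CPM. Its lowest day-8 library was 1.96 times its highest day-4 library. Oas1a (ENSMUSG00000052776, chr5:120896256-120907521), which makes the 2-5A messenger that activates RNase L, was at 5.92, 6.37, 22.1, 18.2 and 21.2 CPM, with a gap of 2.86-fold between the days. Of the 49-base windows of its transcripts 57.4% also occur in its neighbour Oas1g, so the split of reads between these genes is uncertain. Summed over Oas1a and Oas1g, the level was 5.92, 7.82, 25.9, 23.9 and 28.6 CPM, a sum added after the values were seen.

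The 3 Ifitm genes, neighbours on chromosome 7 whose products block virus entry at membranes, were the most abundant effectors. Ifitm2 (ENSMUSG00000060591) was at 453, 495, 538, 542 and 597 CPM, and Ifitm3 (ENSMUSG00000025492) at 343, 398, 380, 401 and 490 CPM. Ifitm1 was at 65.9, 81.1, 98.9, 97.9 and 107 CPM. On CPM the lowest library of all 3 genes was Flag and the highest was paraquat; on TPM the highest for Ifitm1 and Ifitm2 was the day-8 control. Ifitm1 kept its days apart under every scaling, Ifitm2 overlapped on TPM, and Ifitm3 overlapped throughout because CypD was above the day-8 control.

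Other effectors were lower at day 8 or showed no day order. Samhd1, which breaks down deoxynucleotides, was at 123, 117, 88.5, 87.7 and 98.3 CPM, below at day 8 under all scalings. Adar, an RNA editing enzyme, was at 39.1, 41.1, 29.8, 38.2 and 34.2 CPM, a gap of 1.02-fold that was lost on TPM. Eif2ak2 (PKR), which halts translation on sensing double-stranded RNA, was at 12.2, 19.98, 15.2, 19.7 and 22.5 CPM, lowest in Flag, with the days overlapping.

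The PARP and DTX genes and the GTPases had low counts. Parp9 was at 15.8, 13.9, 22.4, 18.9 and 18.2 CPM, and its partner ubiquitin ligase Dtx3l at 11.8, 11.3, 16.9, 13.7 and 9.10 CPM. Parp9 was higher in each day-8 library than at day 4 (overlapping on TPM), whereas Dtx3l had both its highest library (control) and its lowest (paraquat) at day 8. The guanylate-binding proteins Gbp2, Gbp3 and Gbp7, which act on membranes of intracellular pathogens, had 2 to 12 counts in any library. Among the members with other roles, Lgals3bp, a secreted glycoprotein, was at 11.4, 10.4, 18.8, 20.7 and 18.6 CPM, and Xaf1, an antagonist of the apoptosis inhibitor XIAP, at 5.92, 7.82, 9.08, 8.42 and 12.1 CPM. Ifi35 was at 34.3, 39.4, 41.2, 31.2 and 48.1 CPM. Lgals3bp and Xaf1 were higher at day 8 (Xaf1 overlapped on TPM), and Ifi35 was lowest with mastoparan and highest with paraquat.

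Of the 6 class I genes, 5 were higher in all 3 day-8 libraries (83.3%, beside 28.5% of all genes). B2m was lower in all 3 (16.7%, beside 28.1% of all genes). The heavy chain H2-K1 (ENSMUSG00000061232, chr17:33996017-34000347) was at 89.6, 95, 196, 198 and 234 CPM. The heavy chain H2-D1 (ENSMUSG00000073411, chr17:35262730-35267499) was at 130, 118, 171, 160 and 193 CPM. H2-K1 had a gap of 2.07-fold between its highest day-4 and lowest day-8 library, and H2-D1 one of 1.23-fold that closed on TPM. B2m (ENSMUSG00000060802, chr2:122147686-122153083), the light chain that all class I heavy chains need, was at 187, 196, 146, 146 and 169 CPM, lower at day 8 under each scaling. The deposited TPM of H2-K1 and H2-D1 together, divided by that of B2m, was 0.611, 0.529, 1.29, 1.205 and 1.202. Each day-8 ratio of the heavy chains to their light chain was above each day-4 ratio.

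Genes of peptide transport and loading went the same way as the heavy chains. Tap2 (ENSMUSG00000024339, chr17:34203527-34216321) was at 11.8, 15.3, 35.0, 25.3 and 26.4 CPM, and its partner subunit Tap1 at 24.1, 23.5, 32.8, 26.3 and 30.8 CPM. Tapbp (tapasin), which bridges the transporter and the empty class I molecule, was at 72.6, 63.7, 102, 92.3 and 104 CPM. Tap2 had a day gap of 1.65-fold, Tapbp one of 1.27-fold and Tap1 one of 1.09-fold, which closed on TPM. For Tapbp, 22.8% of these windows also occur in other genes, mostly Gm19412, which had few reads: with Gm19412 added the fold of the day-8 control over Flag was 1.42, beside 1.41 for Tapbp alone. H2-K1 shared 10.6% of its windows with other genes and H2-D1 13.4%, among them each other, so counts of single class I genes are less certain than their sum.

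**Figure D3:**
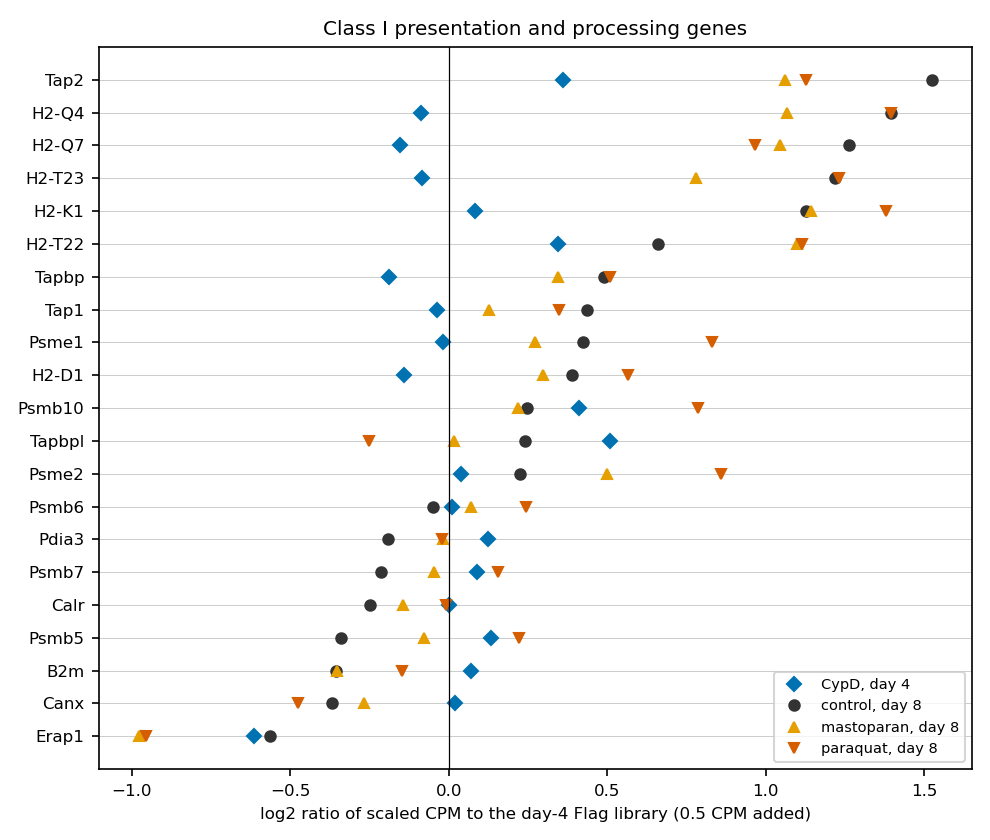
Class I presentation and processing genes as log2 ratios of scaled CPM to the day-4 Flag library (0.5 CPM added), 1 point per library and gene, where the mean count was 20 or more; genes are ordered by the day-8 control. Tap2, H2-Q4, H2-Q7, H2-T23 and H2-K1 lie at 0.78 or above in all 3 day-8 libraries, while B2m, Calr, Canx, Pdia3 and Erap1 lie below 0 in each of them. Some of these are very near 0: Calr with paraquat lies at -0.008 and Pdia3 with mastoparan at -0.019.

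The other genes of class I processing were mixed. Of 19 measured genes on this list 8 were higher in all day-8 libraries (42.1%, beside 28.5% of all genes). In all of them 3 were lower (15.8%, beside 28.1%). H2-Q4, H2-Q7, H2-T22 and H2-T23, class I genes outside the K and D loci, were among the 8. Calr, Canx and Pdia3, the general chaperones of glycoprotein and class I folding, were the 3 lower genes. For Calr and Pdia3 the gap was small: with paraquat they were at 945 and 801 CPM, beside 950 and 813 CPM in Flag. Psmb9, an interferon-inducible catalytic subunit of the immunoproteasome, had 2, 4, 14, 10 and 12 counts, and Psmb8, another, had 2, 8, 7, 10 and 7. By TPM the immunoproteasome's 3 catalytic subunits made up 2.66%, 3.48%, 4.17%, 3.85% and 4.58% of all catalytic subunits, so the standard ones prevailed in every library. Among 33 further interferon-stimulated genes past the filter, 16 were higher in all day-8 libraries (48.5%) and 2 lower (6.06%). Among receptors, kinases and STATs 3 of 14 were higher (21.4%) and 1 lower (7.14%).

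Some markers of other cells also differed between the days. Over all genes, 28.5% were higher in all 3 day-8 libraries and 28.1% lower. All 8 epithelial markers, keratins and junction genes among them, were higher in the 3 day-8 libraries, with a summed level of 177 to 189 CPM at day 4 and 497 to 571 CPM at day 8. The 12 macrophage markers summed to 37.1 to 41.1 CPM at day 4 and 66.7 to 73.0 CPM at day 8, mainly through Cd68 and Laptm5, and 4 of the 5 that passed the filter were higher. Adgre1 had 0 counts in all 5 libraries, Ptprc had at most 1, and 6 of the 12 macrophage markers had at most 3 counts in any library. Of the 12 fibroblast markers 4 were higher (33.3%) and 6 lower (50%), some by small gaps such as 1.01-fold for Col1a2. None of the 3 endothelial markers past the filter was separated by day. The 8 on that list summed to 58.4 and 62.0 CPM at day 4 and 54.2 to 66.3 CPM at day 8. The 8 pluripotency markers summed to 11.8 and 16.2 CPM at day 4 and 29.1 to 35.0 CPM at day 8. Most of this was Fgf4, at 6.71, 12.5, 24.6, 18.9 and 25.1 CPM. Of the 3 that passed the filter 2 were higher, Fgf4 and Zfp42, the latter on at most 7 counts. Nanog, the third, overlapped between the days, and 5 of the 8 had at most 3 counts in any library. The part of these markers in the day order of the members was not tested.

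The day-8 control and the day-4 Flag library are the pair of days without a treatment or a raised Ppif count. The day-4 cells were made to express Flag and the control is described as untreated, so day and construct cannot be told apart here. At least 1.5-fold higher in the control were 9 of 36 members (25%), against 19% of all genes, and 1 was as much lower, Rsad2 (2.78% against 12.8%). On TPM 8 were higher and 3 lower, beside 17.0% and 14.6% of all genes. The exact 95% counting interval of the ratio lay above 1 for 12 members (33.3%) and for 18.2% of all genes, and below 1 for 3 members (8.33%) and 18.8% of all genes. The median log2 ratio of the members was 0.41, and that of all genes was 0.00. Sequenced fragments are amplified and are not independent molecules, so these intervals cover counting error only, not the spread between cultures. They narrow as counts rise, so a share of intervals also depends on how abundant the genes are.

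Folds in this comparison were as large as 3.73 for well counted members. Oas1a was 3.73 times as high in the control as in Flag (68 against 15 counts, interval 2.11 to 7.02), Tap2 2.96 times (1.96 to 4.59) and Bst2 2.45 times (1.98 to 3.05). H2-K1 was 2.19 times as high (605 against 227 counts, interval 1.88 to 2.56). Stat2 was 1.70 times as high (1.07 to 2.78) and Lgals3bp 1.64 times (1.04 to 2.66). Irf7 had the highest ratio, 4.93, on 18 against 3 counts, with an interval from 1.44 to 26.1. Ifih1 and Parp14 completed the 9 on 12 counts in the control and 3 and 4 in Flag, with intervals that included 1. Ifitm1 was 1.501 times as high (1.24 to 1.82), Tapbp 1.41 times (1.17 to 1.70) and H2-D1 1.31 times (1.14 to 1.51). B2m, Samhd1 and Trim25 had ratios of 0.782 (0.686 to 0.891), 0.721 (0.611 to 0.851) and 0.773 (0.636 to 0.939). For H2-K1 and B2m, the intervals of the 2 chains of 1 molecule lay on opposite sides of 1.

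**Figure D4:**
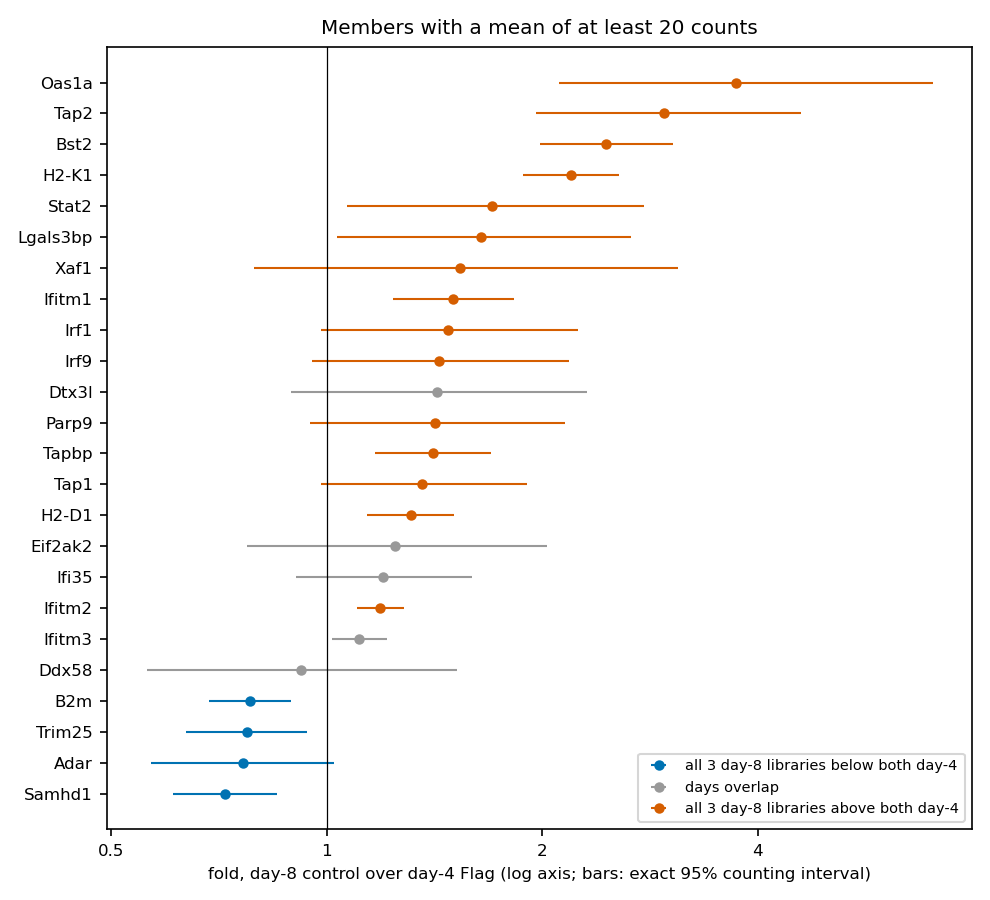
Fold of the day-8 control over the day-4 Flag library (log axis) for the 24 members with a mean of at least 20 counts, with exact 95% counting intervals from 1 library on each side. Orange marks members with all 3 day-8 libraries above both day-4 libraries, blue those with all 3 below, and grey those whose days overlap. Oas1a at 3.73 and Tap2 at 2.96 lead, and Samhd1, Adar, Trim25 and B2m lie at the other end.

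Genes outside the members gave further values for this pair of libraries. Ifi27, an interferon-induced membrane protein, was 4.08 times as high in the control (129 against 26 counts, interval 2.66 to 6.48), and Oas1c, a relative of Oas1a, 4.27 times (26 against 5 counts, 1.61 to 14.3). Parp10 was 2.61 times as high (1.30 to 5.71), and Herc6 2.19 times, with an interval from 0.983 to 5.36. On the list of further interferon-stimulated genes, 14 of 33 were at least 1.5-fold higher (42.4%, beside 19% of all genes). As much lower was 1 (3.03%, beside 12.8%). H2-Q4 was 2.68 times as high (1.89 to 3.86), H2-Q7 2.52 times (1.35 to 4.996), H2-T23 2.36 times (1.75 to 3.22) and H2-T22 1.59 times (1.12 to 2.29). The counts of these 4 genes, H2-K1 and H2-D1 added together, a sum added after the values were seen, came to 286, 281, 513, 490 and 583 CPM. That sum was 1.80 times as high in the control as in Flag (1.64 to 1.96). Of the class I processing list 6 of 19 genes were at least 1.5-fold higher (31.6%, beside 19% of all genes). None was as much lower (12.8% of all genes). Socs3, a feedback inhibitor of JAK kinases, was 1.75 times as high (1.45 to 2.12), and Tmem173 (STING), the adaptor for cytosolic DNA sensing, 1.69 times (1.14 to 2.54). Nlrx1, a mitochondrial member of the NLR family, had a ratio of 2.16 (0.918 to 5.63) and Rnf135, a ligase that modifies RIG-I, one of 0.623 (0.341 to 1.12).

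CypD against Flag at day 4 asks which genes the overexpressed cyclophilin moves. At least 1.5-fold higher with CypD were 6 of 36 members (16.7%), against 6.12% of all genes, and 1 was as much lower (Rsad2), against 6.21%. On TPM the split was 3 higher and 4 lower, beside 5.54% and 7.63% of all genes. Of these 7, 1 had an interval that left out 1, Eif2ak2, with 69 counts in CypD and 31 in Flag (1.63 times, 1.05 to 2.58). The other 5 higher ones had 6 to 18 counts in the CypD library and 2 to 7 in Flag, Irf7, Ifih1, Ifit2, Oasl2 and Gbp7. With a minimum of 5 CPM the count of higher members was 1, Eif2ak2. Smaller differences outside counting error were seen for Ifitm3 at 1.16 times (1.07 to 1.27), Ifitm1 at 1.23 times (1.01 to 1.499) and Ifitm2 at 1.09 times (1.02 to 1.18). Such intervals above 1 were found for 4 members (11.1%) and 3.98% of all genes, and none of the members had one below 1 (4.11% of all genes). The median of the members was 0.08 on the log2 scale, beside -0.01 for all genes.

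No class I gene passed 1.5-fold between these libraries. The median log2 ratio of the 6 was 0.02, and none had an interval that left out 1. H2-K1 was at 89.6 CPM in Flag and 95 CPM in CypD. Of the 33 further interferon-stimulated genes, 3 stood at least 1.5-fold higher with CypD and 4 as much lower. These were 9.09% and 12.1%, beside 6.12% and 6.21% of all genes. On the lists of other genes Il10rb, a shared receptor chain of the type III interferons, had a ratio of 1.66 (0.998 to 2.84) and Irgm1, an immunity-related GTPase, one of 1.70 (0.921 to 3.27). Rnf135 had a ratio of 0.607 (0.338 to 1.08), Erap1, which trims peptides for class I, one of 0.639 (0.367 to 1.11) and H2-M3 one of 0.508 (0.192 to 1.28). All of these intervals included 1.

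Mastoparan was set against the day-8 control, and the shares of members past 1.5-fold were close to those of all genes. At least 1.5-fold higher were 2 of 36 (5.56%), Gbp2 and Gbp7, against 5.05% of all genes, and 2 were as much lower, Gbp3 and Parp14, against 5.76%. None of these 4 had more than 12 counts in either library, and all 4 intervals included 1. Gbp3 had 3 counts with mastoparan and 10 in the control, a ratio of 0.325 (0.0574 to 1.26). Gbp7 had 5 against 2 counts (ratio 2.70, 0.443 to 28.4), and Parp14 5 against 12 (ratio 0.451, 0.124 to 1.37). Tap2 was the 1 member with an interval that left out 1, at 72 counts against 108 and 0.721 times the control (0.528 to 0.981). Such intervals below 1 were found for 3.3% of all genes, and intervals above 1 for 0 members and 4.03% of all genes. The median log2 ratio of the members was -0.10, and of all genes 0.01. On the other lists no gene with a mean of 5 CPM passed 1.5-fold. Below that mean, 1 of 33 further interferon-stimulated genes was at least 1.5-fold higher (3.03%, beside 5.05% of all genes). As much lower were 4 (12.1%, beside 5.76%), 3 of them with an interval below 1 (9.09%, beside 3.3% of all genes). These 3 were Irgm2 (4 counts against 14), Trim34a (0 against 7) and Tgtp1 (0 against 17), and 81.4% of the sequence windows of Tgtp1 also occur in other genes. Of the 19 class I processing genes 6 had an interval above 1 (31.6%, beside 4.03% of all genes), with ratios from 1.08 for Calr to 1.36 for H2-T22. H2-T23 had one below 1, at 0.736 times the control. None of the 19 passed 1.5-fold in either direction. This list holds abundant genes such as Calr, whose intervals are narrow, so its share of intervals is not directly comparable to that of all genes.

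Paraquat against the same control gave small differences in the abundant members. At least 1.5-fold higher were 3 of 36 (8.33%), Dhx58, Isg15 and Gbp7, against 7.84% of all genes, all on at most 9 counts. As much lower were 4 (11.1%), Irf7, Ifit2, Rsad2 and Dtx3l, against 10.8% of all genes. Dtx3l had 21 counts with paraquat and 52 in the control, 0.539 times the level (0.309 to 0.911), and was the 1 among these 7 whose interval left out 1. Both shares were close to those of all genes. On TPM 3 were higher and 8 lower, beside 4.1% and 22.2% of all genes. With a trend on transcript length taken out 5 were higher and 4 lower, beside 6.46% and 8.66%.

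On scaled CPM all 7 members above a mean of 100 TPM were somewhat higher with paraquat, whereas on the deposited TPM 6 of them were lower and Ifitm3 alone was higher. Ifitm3 was 1.29 times as high as in the control (1.18 to 1.40), Bst2 1.21 times (1.03 to 1.41) and H2-K1 1.19 times (1.06 to 1.34). B2m was 1.15 times as high (1.01 to 1.33) and Ifitm2 1.11 times (1.03 to 1.19). These 5 members (13.9%) were those with an interval above 1, beside 11.2% of all genes, and Dtx3l was the 1 with an interval below 1 (2.78% of members, 9.83% of all genes). The median log2 ratio was 0.13 for the members and -0.03 for all genes. On TPM it was -0.18, with all genes at -0.28, so that the members lay above all genes on either scale. With a trend on transcript length taken out it was -0.0038, with all genes at 0.

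Of the 33 further interferon-stimulated genes, 4 stood at least 1.5-fold higher with paraquat than in the control and 5 as much lower. These were 12.1% and 15.2%, beside 7.84% and 10.8% of all genes. Ifi27l2a had 17 counts against 5, a ratio of 4.54 (1.61 to 15.7), and Apol9a 16 against 9, a ratio of 2.37 (0.988 to 6.10); both were chosen after their values were seen. Nfkb1, which encodes the p105 and p50 subunits of NF-kB, had 43 counts with paraquat and 112 in the control, 0.513 times the level (0.352 to 0.735). Jak2 was at 0.643 times (0.495 to 0.830). Among the 5 lower genes Rnf213, Znfx1 and Ifi203 were at 0.577 times (0.384 to 0.853), 0.512 times (0.280 to 0.898) and 0.588 times (0.339 to 0.989). Of the 19 class I processing genes, many of them abundant with narrow intervals, 9 had an interval above 1 on scaled CPM (47.4%, beside 11.2% of all genes). An interval below 1 was found for 0. At least 1.5-fold higher were 2 of the 19 (10.5%, beside 7.84% of all genes), and none was as much lower (10.8%). Psme2, a subunit of a proteasome activator, was 1.55 times as high (1.34 to 1.80), although 28.5% of its sequence windows also occur elsewhere. The standard catalytic subunits Psmb5, Psmb6 and Psmb7 were among the 9 as well, at 1.48 times (1.32 to 1.65), 1.23 times (1.10 to 1.37) and 1.29 times (1.17 to 1.43). The mastoparan and paraquat comparisons share their control library, so their values are not independent.

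The treatments were also compared with each other, which does not involve the control. At least 1.5-fold higher with mastoparan were 2 of 36 members (5.56%), Irf1 and Ifit2, against 9.74% of all genes, and 7 (19.4%) were as much lower, against 7.35%. On TPM 4 were higher and 4 lower, beside 18.1% and 4.87% of all genes. With the length trend taken out 2 were higher and 4 lower (8.34% and 6.82% of all genes), by library totals 3 and 5 (11.9% and 5.93%), and by totals without the 20 most abundant genes 3 and 6 (11.5% and 6.37%). Irf1 had 69 counts with mastoparan and 36 with paraquat, 1.55 times the level (1.02 to 2.39). Ifit2, which binds AU-rich RNA, had 17 against 4 counts, 3.44 times the level (1.12 to 14.1). Of the 7 lower members, Ifi35, a partner of Nmi, was the 1 whose interval left out 1, at 89 against 111 counts and 0.649 times the level (0.486 to 0.866). The other 6, Dhx58, Zbp1, Isg15, Gbp3, Gbp7 and Parp14, had 3 to 12 counts.

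On scaled CPM abundant members were lower with mastoparan than with paraquat by small margins, whereas on TPM Bst2 and Ifitm3 stayed lower and Ifitm2, H2-K1, H2-D1 and B2m were higher with mastoparan. Bst2 was at 0.751 times the level (0.639 to 0.883), Ifitm3 at 0.819 times (0.754 to 0.890) and Ifitm2 at 0.907 times (0.843 to 0.976). The class I chains H2-D1, H2-K1 and B2m were at 0.830 times (0.727 to 0.948), 0.847 times (0.752 to 0.955) and 0.866 times (0.753 to 0.997). Intervals below 1 were found for 7 members (19.4%) and 10.3% of all genes, above 1 for 2 members (5.56%) and 8.93% of all genes. The median log2 ratio of the members was -0.16 beside 0.02 for all genes; on TPM it was 0.06 beside 0.23, so that the members lay below all genes on either scale. Of the 33 further interferon-stimulated genes, 3 stood at least 1.5-fold higher with mastoparan and 4 as much lower. These were 9.09% and 12.1%, beside 9.74% and 7.35% of all genes. Ifi27l2a had 4 counts against 17, a ratio of 0.191 (0.0467 to 0.584), and Tgtp1 0 against 10. Of the 19 class I processing genes, many of them abundant, 8 had an interval below 1 (42.1%, beside 10.3% of all genes) and 1 an interval above 1. At least 1.5-fold lower were 2 of the 19 (10.5%, beside 7.35% of all genes), and none was as much higher (9.74%). Znfx1 was 2.02 times as high with mastoparan (1.15 to 3.72), Rnf213 1.71 times (1.15 to 2.58) and Nfkb1 1.64 times (1.12 to 2.42). Ifi203 had a ratio of 1.62 (0.9503 to 2.84), Oas1c one of 0.551 (0.279 to 1.06) and H2-M3 one of 0.597 (0.277 to 1.26).

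**Figure D5:**
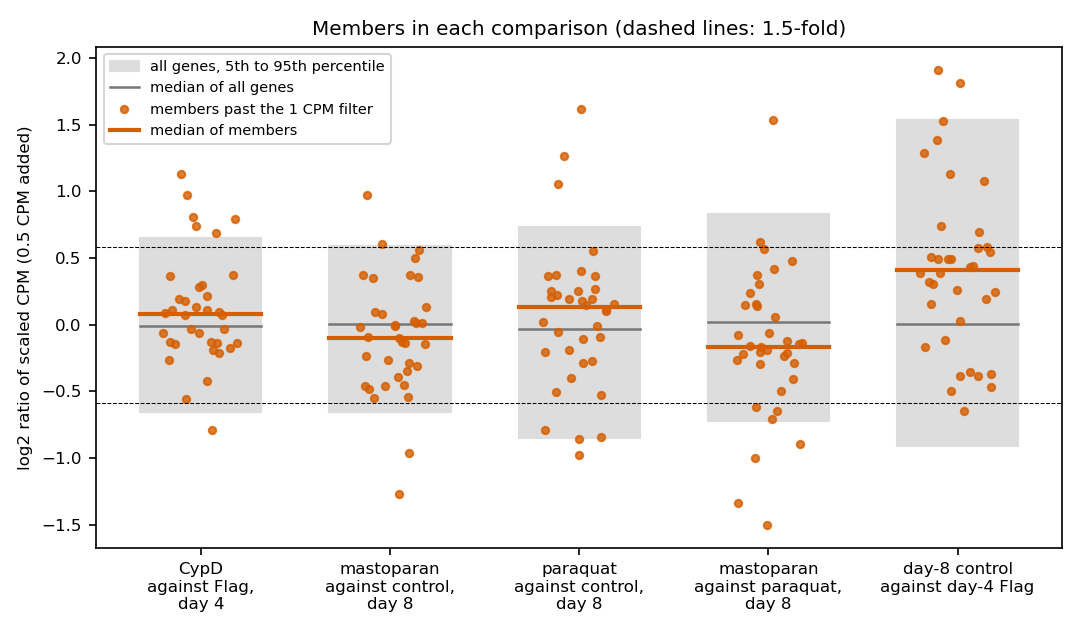
Log2 ratios of scaled CPM (0.5 CPM added) in the 5 comparisons. Orange points are the 36 members past the filter, spread sideways at random for legibility, with their median as an orange line, and the grey box and line give the 5th to 95th percentile and the median of all 13584 genes. Dashed lines mark 1.5-fold, and the members' median lies farthest from that of all genes, at 0.41, between the day-8 control and the day-4 Flag library.

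The members with an ISRE core did not share a day order. Of 14 that passed the filter, 5 were higher in all 3 day-8 libraries and 1 was lower, B2m. Of 17 without the core, 9 were higher and 3 lower. Over all genes 28.5% were higher and 28.1% lower, and nothing particular to the core is read from these counts. Among the 6 genes whose windows are printed above, Bst2 and Oas1a were separated by day upward under all scalings, B2m downward, Ifitm2 upward except on TPM, and Ifitm3 and Ddx58 overlapped. The median level was 5.71 TPM with the core and 13.0 TPM without it, over ranges from 0.404 to 1252 TPM and from 0.534 to 217 TPM.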

How the data were processed

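Total RNA was extracted in Trizol for Illumina TruSeq libraries, per the labels' protocols. The submitters' processing notes name Bowtie2 2.2.5 and mm10. How reads were assigned to genes, and with which annotation, is not given in the sources used here. Deposited tables list, per the file headers, gene lengths, effective lengths, expected counts, TPM and FPKM. The deposited TPM was used as an alternative and for levels between genes, and the deposited FPKM was not used.

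Expected counts were rounded to whole counts, and 16.8% to 19.0% of values in a library were not whole as deposited. Gene IDs were matched to GENCODE M21, where 28756 of 29267 had a symbol. The members and gene lists were chosen with earlier results of these data known. Libraries were scaled by TMM (edgeR 4.0.16, R 4.3.3), with factors from 0.951 to 1.02. Log2 ratios add a pseudocount of 0.5 CPM, which lessens the ratio of genes with few counts, and cover genes whose mean CPM over all 5 libraries is 1 or more. Members that passed only through a library where they were high had to differ, so counts of them describe these libraries. Folds are ratios of scaled counts without a pseudocount, and each has an exact 95% interval by the Clopper-Pearson method, not adjusted for the number of genes. The log2 and interval code was tested on simulated data. The software was Python 3.11.15, pandas 2.3.3, numpy 2.4.6, scipy 1.17.1 and matplotlib 3.10.9.

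Members with a mean of at least 20 counts are named with all 5 values, as are those past 1.5-fold whose interval leaves out 1, or else the 3 largest ratios of a comparison. From each further list up to 4 genes past 1.5-fold with a mean of at least 5 CPM are named, with Ifnar1, Ifnar2, Psmb8, Psmb9, Nlrc5, Mavs and Ppif always (1 further gene of this rule is not reported here). Other names in the text were chosen after the values were seen. Promoter windows are those of RefSeq in GRCm38.p6. Shared sequence is the share of 49-base windows of a gene's GENCODE transcripts that occur in another gene's. Alternatives were other scalings (library totals, DESeq2 1.42.0 size factors, upper quartile, TPM, totals without the 20 most abundant genes), a length trend taken out over 40 bins, other filters and pseudocounts, and genes with shared sequence left out.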

Additional observations from a re-analysis of the deposited data

How the results depend on the processing

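Of 196 values recomputed under 12 alternatives, 166 were labelled as the same, 27 as moved and 3 as reversed. The label of the same allows some change, so those values were not all identical. A small median may also have changed sign without being labelled as reversed. No paired analysis was possible because each group has 1 library and the labels give no replicate numbers, and for the same reason no library could be left out within a group. Shallow libraries limit the low members: 1 count is worth 0.290 CPM in CypD and 0.433 CPM in paraquat.

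On the deposited TPM the members' median log2 ratio changed sign for paraquat against control, from 0.13 to -0.18, and for mastoparan against paraquat, from -0.16 to 0.056. With a trend on transcript length taken out, that of paraquat against control was -0.0038. TPM moved the median of all genes too, from -0.03 to -0.28 for paraquat against control and from 0.02 to 0.23 for mastoparan against paraquat, so the members kept their side of all genes in both.

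The values labelled as moved were counts of members past 1.5-fold and 1 count by day. On TPM 9 members (17 on CPM) had all day-8 libraries above both day-4 libraries. On TPM, CypD against Flag gave 3 higher (6 on CPM) and 4 lower (1), paraquat against control 8 lower (4), mastoparan against paraquat 4 higher (2) and 4 lower (7), and the day-8 control against Flag 3 lower (1). With a minimum of 5 CPM, which leaves 24 members, CypD against Flag gave 1 higher and 0 lower, mastoparan against control 0 higher and 0 lower, paraquat against control 0 higher and 1 lower, mastoparan against paraquat 1 higher and 1 lower, and the day-8 control against Flag 0 lower. With a pseudocount of 2 CPM, CypD against Flag gave 3 higher, mastoparan against control 0 higher, mastoparan against paraquat 1 higher and 4 lower, and the day-8 control against Flag 0 lower. With a pseudocount of 0.1 CPM, CypD against Flag and the day-8 control against Flag each gave 2 lower. Without a filter, CypD against Flag gave 2 lower and the day-8 control against Flag 4 lower. With the length trend taken out, paraquat against control gave 5 higher and mastoparan against paraquat 4 lower. Fewer members are counted under a stricter filter by construction, and for the other settings the cause was not tested. For the filter and pseudocount settings the shares of all genes are not given here. A change in the members therefore cannot be told from a change in all genes there.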
